A study of Homo sapiens with 6 samples.

Results

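The genes described here encode the proteins of the cytosolic ribosome. They were chosen by name, as protein-coding genes called RPL or RPS with a number, without the kinase genes that start with RPS6K and without RPS4Y. The rule uses no measured value. It found 88 of the 58735 genes in the table, 55 with RPL names (large subunit) and 33 with RPS names (small subunit). They lie on 21 chromosomes. Several subunit genes do not carry such a name (RPSA, FAU and RACK1 among them) and are given apart, while RPS19BP1, which does, encodes a protein that binds RPS19 and is not itself a subunit. The rule also took close paralogs and readthrough genes that join a member to its neighbour.

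RNA had been sequenced from KYSE30, an established human oesophageal squamous carcinoma cell line, in 6 libraries. Cells had received si-RAB23-1 (2 libraries), si-RAB23-9 (2 libraries) or the control siRNA si-NC (2 libraries), each at 100 nM with the HiPerFect reagent, and RNA was taken with Trizol at about 80% confluence. Both RAB23 siRNAs were given to the same line, and the labels do not say whether libraries of a group came from separate cultures. The spread behind the p-values below is therefore that between these libraries, and part of it may be technical. RAB23 encodes a small GTPase of membrane traffic.

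A ribosome holds 1 copy of nearly every ribosomal protein, so cells make these proteins in matched amounts. Their mRNAs are among the most abundant in growing cells. Most start with a cytosine followed by a run of pyrimidines, the 5′ terminal oligopyrimidine (5′TOP) motif, through which mTORC1 signalling and the protein LARP1 control their translation and stability. Such control of translation does not show in RNA levels alone. A few members have jobs outside the ribosome: RPL5 and RPL11 bind the 5S ribosomal RNA, and this complex can inhibit MDM2, a ubiquitin ligase.

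The 5′TOP motif is the sequence that members have in common without having been chosen for it, so the start of several mRNAs is shown. Each window holds 10 bases before the annotated start and 20 from it, from RefSeq on GRCh38.p14, and 69 of the 88 members matched an entry. Capitals mark a run of at least 5 pyrimidines (C or T) that begins with C at the first transcribed base. The run was present in 43 of the 69 (62.3%), against 4.04% of all 27305 promoters in the same table. Its median length was 8 bases and the longest had 19. The windows below are those of RPL35, RPL21, RPL15 and RPS28, whose levels are taken up later, and of 4 pairs of a core gene and its paralog.
RPL35 (chr9:124861938-124861967, minus strand): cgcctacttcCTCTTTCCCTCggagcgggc
RPL21 (chr13:27251548-27251577, plus strand): ccgcctctttCCTTTCggccggaaccgcca
RPL15 (chr3:23916535-23916564, plus strand): tggggcctgctggaggagcttcacgcagtc
RPS28 (chr19:8321486-8321515, plus strand): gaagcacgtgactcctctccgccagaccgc
RPL22 (chr1:6199576-6199605, minus strand): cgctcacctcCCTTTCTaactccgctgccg
RPL22L1 (chr3:170870176-170870205, minus strand): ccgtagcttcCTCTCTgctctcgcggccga
RPL26 (chr17:8383174-8383203, minus strand): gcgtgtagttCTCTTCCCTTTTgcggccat
RPL26L1 (chr5:172958719-172958748, plus strand): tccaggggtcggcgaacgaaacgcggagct
RPL36A (chrX:101391001-101391030, plus strand): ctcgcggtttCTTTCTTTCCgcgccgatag
RPL36AL (chr14:49620607-49620636, minus strand): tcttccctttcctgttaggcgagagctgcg
RPS27 (chr1:153990752-153990781, plus strand): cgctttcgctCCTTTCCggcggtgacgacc
RPS27L (chr15:63157458-63157487, minus strand): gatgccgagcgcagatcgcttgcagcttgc

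In 3 of these 4 pairs the core gene held the run and its paralog did not, and RPL22L1 held it together with RPL22. RPL15 and RPS28 had no such run at the start that RefSeq annotates. The run was counted only where C was the first transcribed base. In RPS28 a run of pyrimidines led by C begins right after the annotated start base, and in RPL36AL pyrimidines lie across the start. Neither was counted, so presence of the run depends on the exact start annotated. Members with a run had a median of 215.6 FPKM with si-NC, and members without one 146.9 FPKM. These medians are over all matched members and include some with almost no reads. Those were RPL10L and RPL17-C18orf32 without a run, and RPL36A-HNRNPH2 with one. The difference between both medians was not tested. FPKM divides the fragments of a gene by its length and by a size set for each library, so levels of different genes are compared per length.

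The 6 libraries held between 17211025 and 24178125 reads, as recovered from the FPKM. The size that the FPKM were divided by was 0.963 and 0.976 times these reads with si-RAB23-1. It was 0.985 and 0.988 times with si-RAB23-9, against 0.987 and 0.990 times with si-NC. A smaller size gives a higher FPKM for the same reads. Results at a common FPKM total are given below. RAB23 was at 1.03 and 1.10 FPKM with si-RAB23-1 and at 1.18 and 1.27 FPKM with si-RAB23-9, against 3.27 and 3.33 FPKM with si-NC. Its mean was 0.322 times that of si-NC with si-RAB23-1 and 0.372 times with si-RAB23-9. On the scale of log2(FPKM + 1), which understates the change of a gene this low, it fell by 1.06 with si-RAB23-1 (limma adjusted p = 0.00314) and by 0.95 with si-RAB23-9 (0.00392). Of the markers of squamous epithelium, 8 of 10 were at 1 FPKM or more in every library, and all 4 epithelial markers were too. Of 7 fibroblast markers 6 were under 1 FPKM, with COL1A2, DCN, LUM and PDGFRA at 0, and all 5 leukocyte markers were under 1 FPKM in every library. Of 3 endothelial markers 2 were under 1 FPKM, and CDH5 was at 1.49 and 1.97 FPKM with si-RAB23-1 and 2.65 and 3.07 FPKM with si-RAB23-9, against 3.65 and 3.60 FPKM with si-NC. It fell with si-RAB23-1 (-0.77 on the same scale, limma adjusted p = 0.0112). The summed squamous markers came to 410 to 424 FPKM with si-RAB23-1 and 359 to 364 FPKM with si-RAB23-9, against 368 to 381 FPKM with si-NC, most of it from SFN, whose level was between 262 and 311 FPKM. Of the 8 tested squamous markers, 5 rose with si-RAB23-1 (62.5%, against 15.4% of all genes called), with a median of 0.42. KRT6A (1.04) and DSG3 (0.91) were among them. With si-RAB23-9, SOX2 (0.73) and KRT6A (0.35) rose and 2 others fell, SFN among them (-0.19), with a median of -0.019 (50%, against 13.3%). Between the RAB23 siRNAs 6 were lower with si-RAB23-9 and none was higher (75%, against 21%), with a median of -0.48. Of the 4 epithelial markers none was called with si-RAB23-1. With si-RAB23-9 2 of them rose and 1 fell, and between the RAB23 siRNAs 2 were higher and 2 lower. Whether these marker differences have a part in the differences below was not tested.

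Ribosomal protein genes were highly expressed, but over a wide range. Of the 88, 83 reached 1 FPKM in at least 2 libraries and were tested. Their median was 198.6 FPKM with si-NC, against 5.42 FPKM over all 14352 genes tested, and 59 were at 100 FPKM or more. The most abundant per length was RPL13A (ENSG00000142541), a large subunit protein known also from control of inflammatory mRNAs, at 995 and 1037 FPKM with si-RAB23-1 and 1072 and 1069 FPKM with si-RAB23-9, against 1087 and 1032 FPKM with si-NC. The large subunit gene RPL8 followed with 1114 and 1108 FPKM for si-RAB23-1 and 1129.7 and 1116 FPKM for si-RAB23-9, against 1055 and 1003 FPKM for si-NC. RPL8 was thus above its si-NC values in all 4 libraries, without passing the test (adjusted p = 0.0664 and 0.0521). The small subunit genes RPS2 and RPS12 came next, at 949 to 957 and 922 to 951 FPKM with si-NC.

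At the other end, 12 of the 83 stayed under 30 FPKM with si-NC. Among the lowest were RPS10, RPL36A, RPS27L and RPL17. RPS10, a core gene of the small subunit, was at 1.56 and 1.56 FPKM with si-RAB23-1 and 1.19 and 1.48 FPKM with si-RAB23-9, against 1.49 and 1.56 FPKM with si-NC. RPL36A, of the large subunit, had 3.20 and 3.25 FPKM with si-RAB23-1 and 2.67 and 2.60 FPKM with si-RAB23-9, against 2.99 and 2.97 FPKM with si-NC. Another core gene of the large subunit, RPL17, had 7.76 and 7.17 FPKM with si-RAB23-1 and 7.19 and 7.18 FPKM with si-RAB23-9, against 6.47 and 6.20 FPKM with si-NC. These levels cannot be taken as the abundance of their mRNAs. RPS10 shares 39.4% of its exonic bases with the readthrough gene RPS10-NUDT3, RPL17 shares 32.7% with RPL17-C18orf32, and RPL36A shares 8.40% with RPL36A-HNRNPH2. Reads that fit more than 1 gene may have been left out or split in the authors' counting.

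Processed pseudogenes are the other source of such reads. The table held 1070 pseudogenes named after members. For RPS10, 71.6% of the reads counted on the gene and its pseudogenes together were on the pseudogenes, and for RPS2 the share was 24.7%. It was above 5% for 17 members, among them RPL22 with 12.4%, RPL26 with 14.5% and RPL21 with 10.5%. The level of each such gene is therefore uncertain.

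Gene length matters as well. FPKM was computed on all exons of a gene joined, with a median of 3002 bases for the members, whereas the shortest principal transcript had a median of 709 bases. With reads scaled to that transcript, RPL12 came first of the 88 instead of eighth, and RPL13A seventh. The Spearman correlation between both scalings over the members was 0.849, a description over genes of the same libraries.

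**Figure D1:**
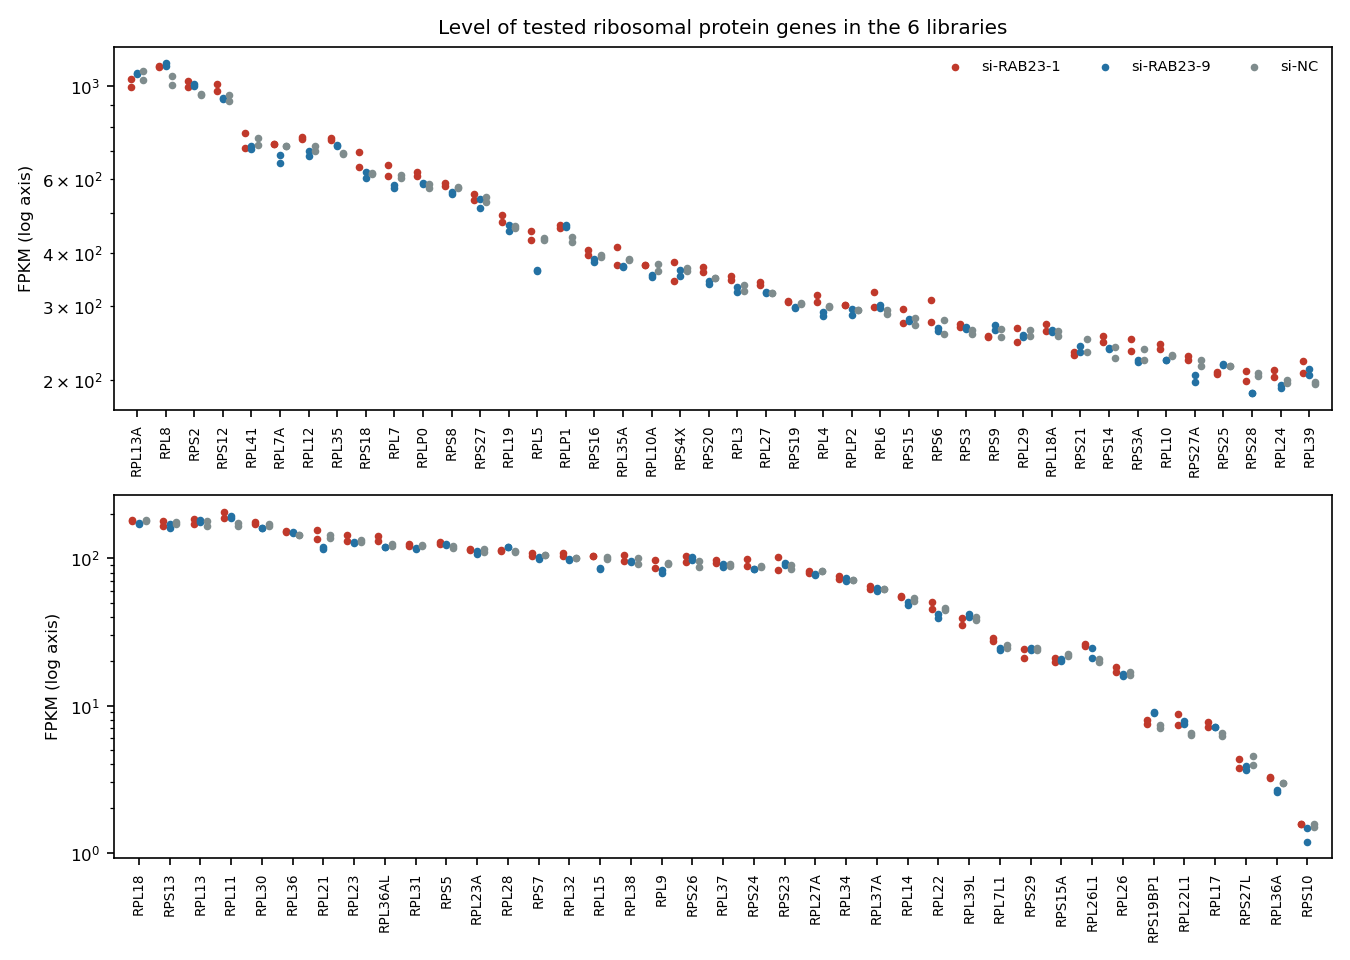
FPKM (log axis) of 81 of the 83 tested ribosomal protein genes, ordered by their mean with si-NC over both panels, with 1 point per library and the groups side by side. Levels span from 1059 FPKM for RPL13A to 1.53 FPKM for RPS10 in the si-NC means, and the points of a gene lie close together compared with that range.

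The 5 members that were not tested were RPL3L, RPL10L and 3 readthrough genes. RPL3L, the paralog of RPL3 known from heart and skeletal muscle, had 12 reads over both si-RAB23-1 libraries and 7 with si-RAB23-9, against 10 with si-NC. RPL10L, a paralog of RPL10 known from the testis, had 0 reads with either RAB23 siRNA and 1 with si-NC. RPL36A-HNRNPH2, RPL17-C18orf32 and RPS10-NUDT3 had 2 reads at most in any group. Nothing can be said about how these genes differed between groups at this depth.

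Together the members took up a share of the transcriptome that differed little between libraries. Their summed level was 7.69% and 7.61% of all FPKM with si-RAB23-1, 7.47% and 7.47% with si-RAB23-9, against 7.53% and 7.52% with si-NC. Both si-RAB23-1 libraries thus lay above si-NC and both si-RAB23-9 libraries below it, with means apart by 0.121 and -0.0531 percentage points. An exact two-sided permutation test gave p = 0.33 for each pair of groups, the smallest p that 2 against 2 libraries allow. The protein-coding genes of mitochondrial DNA held 17.2% and 16.7% of all FPKM with si-RAB23-1, 17.1% and 17.0% with si-RAB23-9, against 17.6% and 17.9% with si-NC. Out of protein-coding FPKM without those mRNAs, the members held 10.8% and 10.6% with si-RAB23-1, 10.4% and 10.4% with si-RAB23-9, against 10.6% and 10.6% with si-NC, and the si-RAB23-1 and si-NC ranges then overlapped. These are shares of each library, so that fewer cells of a type and less RNA per cell cannot be told apart.

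Single members were then compared with limma on log2(FPKM + 1), and the threshold for a call was 0.05 after Benjamini-Hochberg adjustment across the 14352 genes. Both comparisons with si-NC use the same control libraries. Fold changes below are on this log2 scale. They varied less among members than among genes at large, with a standard deviation of 0.071 for si-RAB23-1 minus si-NC, against 0.25 over all genes. For si-RAB23-9 minus si-NC it was 0.095, against 0.24, and between the RAB23 siRNAs 0.089, against 0.27. Most of all genes were at far lower levels than the members. Among 268 other genes with a mean of at least 100 FPKM it was 0.183, 0.207 and 0.232, in the same order of comparisons. An absolute log2 fold change under 0.2 was found for 79 of the 83 members with si-RAB23-1 (69.0% of all genes) and for 78 with si-RAB23-9 (70.8% of all genes), and between the RAB23 siRNAs for 76 (64.4%).

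With si-RAB23-1, RPL35 and RPL26L1 rose and no member fell. The 2 calls of 83 are 2.41%, below the 15.4% of all genes that were called in this comparison (8.13% higher and 7.26% lower). Of the members, 68 had a fold change above 0 and 15 below, with a median of 0.053, against 0.0083 over all genes. At an unadjusted p under 0.05, 22 were higher and 1 was lower, together 27.7% of the members, against 31.7% of all genes (16.7% higher and 15% lower). Both si-RAB23-1 libraries were above both si-NC libraries for 42 members (50.6%), against 31.7% of all genes, and below for 3 members (3.61%), against 28.5% of all genes. The median was 0.065 over the 51 tested large subunit names and 0.034 over the 32 small subunit names.

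RPL35 (ENSG00000136942, chromosome 9, 124857880 to 124861981, GRCh38), a large subunit protein near the exit of the nascent chain and one with a long 5′TOP run above, had 750.2 and 742 FPKM with si-RAB23-1, against 687 and 694 FPKM with si-NC. The groups did not overlap, and it rose by 0.11 (SE 0.023, limma adjusted p = 0.0307). RPL26L1 (chromosome 5, 172958729 to 172969771), the paralog of RPL26, had 25.6 and 26.0 FPKM with si-RAB23-1, against 19.8 and 20.8 FPKM with si-NC. It rose by 0.33 (SE 0.075, limma adjusted p = 0.0387), the largest change of any member in this comparison. RPL26L1 lost its call when any si-NC or si-RAB23-1 library was left out, where its limma adjusted p reached 0.170. RPL35 kept it when si-RAB23-1 replicate 2 was left out and lost it when any other library was, with a limma adjusted p of up to 0.151. Of the 11 other settings, RPL35 kept its call in 6 and RPL26L1 in 8. After quantile normalization the fold change of RPL35 was 0 (limma adjusted p = 1).

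The next largest values did not pass the test. RPL22L1, the paralog of RPL22, was at 8.75 and 7.39 FPKM with si-RAB23-1, against 6.30 and 6.55 FPKM with si-NC (0.28, limma adjusted p = 0.0640). RPL11, the partner of RPL5 on the 5S ribosomal RNA, was at 208 and 189 FPKM with si-RAB23-1, against 167 and 175 FPKM with si-NC (0.21, limma adjusted p = 0.0514). RPL17 followed with 0.21 (limma adjusted p = 0.0527) and RPL7L1 with 0.15 (0.0903). All 4 had both si-RAB23-1 libraries above both si-NC libraries. On the lower side the values were -0.12 for RPS15A, -0.10 for RPS29, and -0.06 each for RPS21, RPL13A and RPL39L, with limma adjusted p between 0.156 and 0.576. These values moved with single libraries. RPS15A was at -0.0685 and RPS29 at -0.0023 without si-RAB23-1 replicate 2, RPS21 was at -0.0138 and RPL13A at -0.0226 without si-NC replicate 1, and RPL39L turned to 0.0177 without si-RAB23-1 replicate 2.

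The si-RAB23-1 libraries differed from each other over the members. Replicate 1 was above replicate 2 for 65 of the 83, with a median difference of 0.046, whereas 44 of 83 were higher in replicate 1 of each of the other groups. Against the si-NC mean the members' median was 0.080 in si-RAB23-1 replicate 1 and 0.030 in replicate 2. Without replicate 1 limma called 0 members, against 7.45% of all genes. At an unadjusted p under 0.05 there were 12 higher and 4 lower (19.3%, against 26.8% of all genes). Without replicate 2 it called 9 (10.8%, against 12.7% of all genes), all of them higher. Leaving out si-NC replicate 1 also gave 0 calls (12 higher and 0 lower at an unadjusted p under 0.05, 14.5% against 23.4% of all genes), as did leaving out si-NC replicate 2 (5 and 1, 7.23% against 22.9%). Leaving out a si-RAB23-9 library gave 1 call. The scaling of the libraries mattered too. On voom with median-of-ratios sizes 12 members were higher and 1 lower (15.7%, against 26.4% of all genes). On voom with library totals it was 6 and 3 (10.8%, against 26.5%). After quantile normalization it was 3 and 2 (6.02%, against 14.8%), and with FPKM set to a common total 0 and 0 (against 15.2%). The members' median stayed above 0 under each of these scalings and was lowest, at 0.0088, after quantile normalization.

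**Figure D2:**
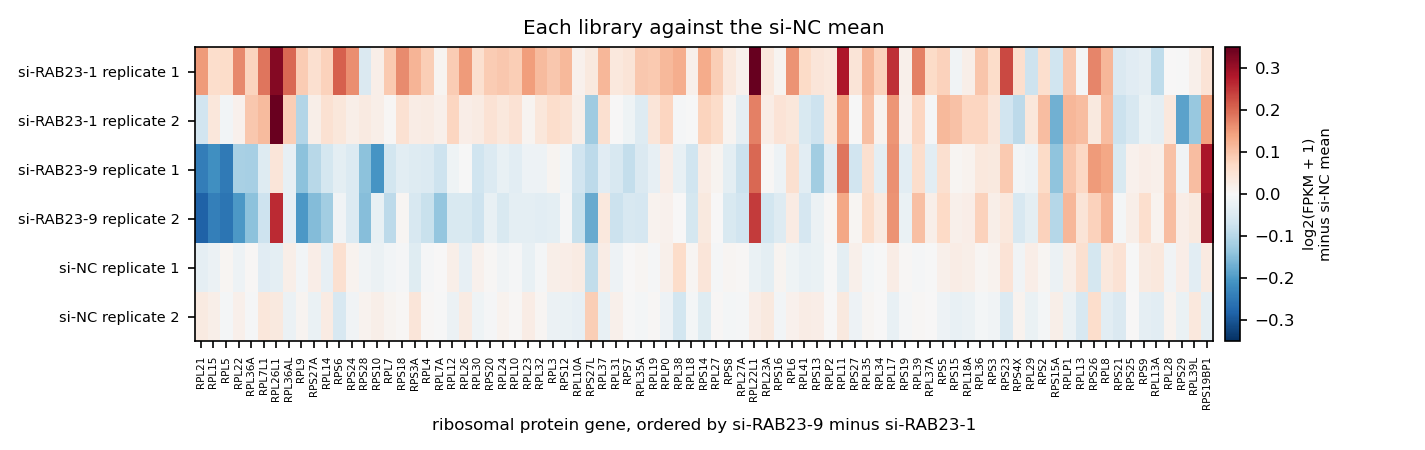
Difference of log2(FPKM + 1) between each library and the si-NC mean (colour) for 81 of the 83 tested members, ordered from the lowest to the highest si-RAB23-9 minus si-RAB23-1 fold change, with 1 row per library. The si-RAB23-1 rows are mostly above 0, replicate 1 more so (median 0.080) than replicate 2 (0.030), and RPL21, RPL15 and RPL5 at the left are low in both si-RAB23-9 libraries.

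With si-RAB23-9, the large subunit genes RPL5 and RPL15 and the small subunit gene RPS28 fell, and RPS19BP1 rose. The 4 calls are 4.82% of the 83, below the 13.3% of all genes that were called here (7.56% higher and 5.69% lower). Fold changes were above 0 for 29 members and below 0 for 54, with a median of -0.026, against 0.0060 over all genes. At an unadjusted p under 0.05, 9 were higher and 12 lower, together 25.3% of the members, against 29.7% of all genes (16.3% higher and 13.3% lower). Both si-RAB23-9 libraries were above both si-NC libraries for 17 members (20.5%, against 32.5% of all genes) and below for 35 (42.2%, against 28.7%). The medians of both subunits were alike, -0.026 for the large and -0.027 for the small one.

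RPL5 (ENSG00000122406, chromosome 1, 92831983 to 92841924), the 5S RNA binding protein, was at 365 and 363 FPKM with si-RAB23-9, against 435 and 432 FPKM with si-NC. It fell to 0.840 times the si-NC mean (log2 fold change -0.25, SE 0.032, limma adjusted p = 0.00949), and the si-RAB23-1 libraries, at 453 and 430.1 FPKM, gave a fold change of 0.03 that did not pass (limma adjusted p = 0.623). RPL15 (ENSG00000174748, chromosome 3, 23916545 to 23924374), a large subunit protein, had 86.3 and 84.7 FPKM with si-RAB23-9, against 98.8 and 102 FPKM with si-NC. It fell by 0.23 (SE 0.031, limma adjusted p = 0.0109). For both genes the 2 si-RAB23-9 libraries lay below the other 4 libraries.

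RPS28 (chromosome 19, 8321158 to 8323340), a small protein near the mRNA exit of the small subunit, had 187 and 186 FPKM with si-RAB23-9, against 205 and 208 FPKM with si-NC. It fell by 0.15 (limma adjusted p = 0.0494), just under the threshold. On the opposite strand 21.4% of its exonic bases lie in exons of other genes, and without strand information their reads cannot be told apart. With the reads of its pseudogenes added, 3.39% of the total, the fold change was -0.13 and the call was lost (limma adjusted p = 0.0788). RPS19BP1 (chromosome 22, 39529093 to 39532855) had 8.96 and 9.08 FPKM with si-RAB23-9, against 7.36 and 6.99 FPKM with si-NC, and rose by 0.29 (SE 0.052, limma adjusted p = 0.0212). RPS19BP1 encodes a protein that is not itself a ribosomal subunit.

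All 4 calls were lost when any library of si-RAB23-9 or of si-NC was left out. The highest limma adjusted p was then 0.0792 for RPL5, 0.0915 for RPL15, 0.125 for RPS19BP1 and 0.216 for RPS28. In each of these 4 fits limma called 0 members, against 1.8% to 2.41% of all genes. At an unadjusted p under 0.05, 2 to 4 were higher and 3 to 7 lower, 6.02% to 13.3% of the members, against 20.7% to 22.5% of all genes. It called 7 (8.43%, against 14.4% and 14.5% of all genes) when either si-RAB23-1 library was left out. Directions did not turn: RPL5 stayed between -0.258 and -0.246 and RPL15 between -0.249 and -0.206. Of the 11 other settings, RPL15 kept its call in all 11, RPL5 and RPS19BP1 in 10 and RPS28 in 7. Under other scalings the split of higher to lower calls was 5 to 6 after quantile normalization (13.3% of the members, against 13.1% of all genes). It was 5 to 9 on voom with library totals (16.9%, against 23.7%) and 5 to 10 on voom with median-of-ratios sizes (18.1%, against 23.7%).

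Among the members that did not pass, RPL21, a large subunit gene, was at 119 and 116 FPKM with si-RAB23-9, against 138 and 144 FPKM with si-NC. Its fold change was -0.26, as large as that of RPL5, with a wider error (SE 0.072, limma adjusted p = 0.0698). RPL9 and RPL22 followed with -0.17 and -0.16 (limma adjusted p = 0.145 and 0.157). On the higher side RPL22L1 had 0.22, RPL11 and RPL17 0.16 each and RPL26L1 0.15, with limma adjusted p between 0.109 and 0.246. The value of RPL26L1 was 0.0437 without si-RAB23-9 replicate 2 and 0.262 without replicate 1. RPLP1 of the P stalk had 0.11 (limma adjusted p = 0.0576) and RPL28 0.11 (0.0679).

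**Figure D3:**
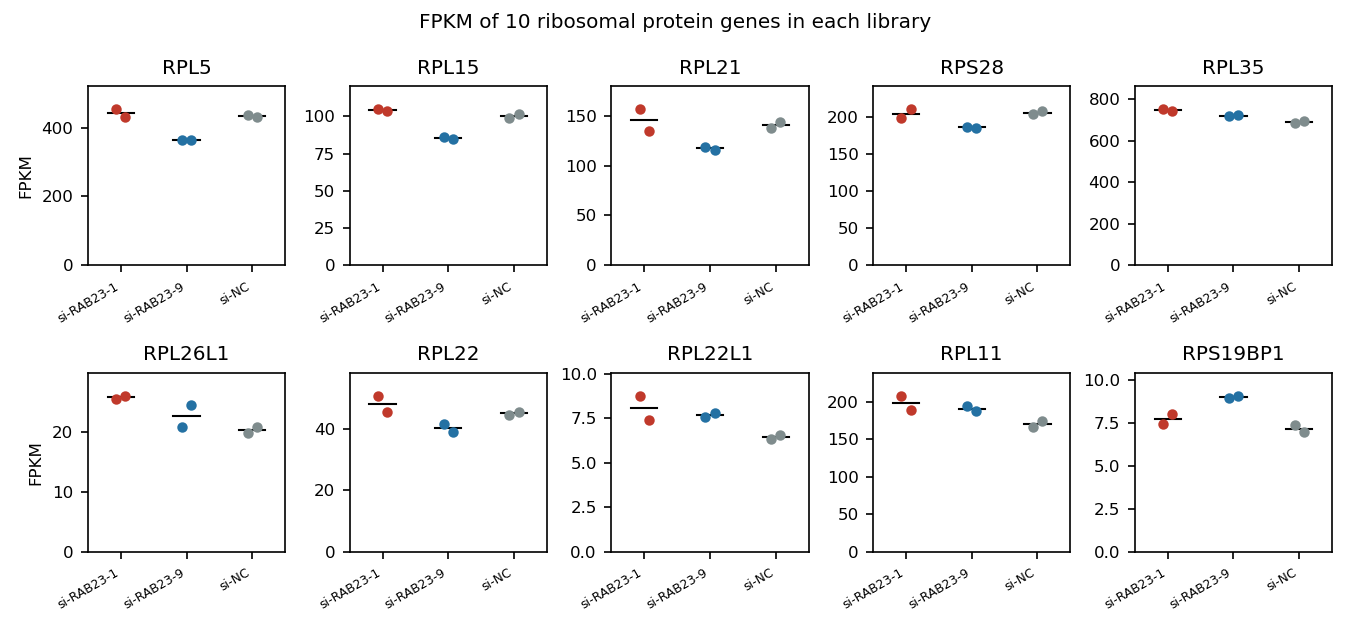
FPKM of 10 named members in each library (points) with the group mean (line), each panel with its own axis from 0. RPL5, RPL15, RPL21 and RPS28 have both si-RAB23-9 points under both si-NC points, and RPL35, RPL26L1, RPL22L1 and RPL11 have both si-RAB23-1 points above both si-NC points.

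The RAB23 siRNAs were also compared directly, which tests whether their effects on a gene differ. Of the 83 members 16 were lower with si-RAB23-9 than with si-RAB23-1, and RPS19BP1 was higher. The 17 calls are 20.5% of the members, near the 21% of all genes called between these siRNAs, while the direction was uneven: 9.89% of all genes were called lower and 11.1% higher. Fold changes were below 0 for 70 members and above 0 for 13, with a median of -0.070, against 0.00023 over all genes. Both si-RAB23-9 libraries were below both si-RAB23-1 libraries for 50 members (60.2%, against 31.2% of all genes) and above for 7 (8.43%, against 32.1%). Of the 16 lower genes 13 had RPL names (RPL15, RPL5, RPL7L1, RPL12, RPL21, RPL14, RPL22, RPL7A, RPL30, RPL4, RPL36AL, RPL36A and RPL10). The 3 with RPS names were RPS27A, RPS20 and RPS28.

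The lowest values were those of RPL21 (-0.30, limma adjusted p = 0.0367), RPL15 (-0.28, 0.00487), RPL5 (-0.28, 0.00519), RPL22 (-0.25, 0.0397) and RPL36A (-0.22, 0.0470), followed by RPL7L1 (-0.21, 0.0318). RPL15 was at 86.3 and 84.7 FPKM with si-RAB23-9, against 105 and 103 FPKM with si-RAB23-1, and RPL21 at 119 and 116 FPKM with si-RAB23-9, against 157 and 135 FPKM with si-RAB23-1. The si-RAB23-1 libraries thus differed more from each other for RPL21 than for RPL15. RPL12, the most abundant member per principal transcript, had 702 and 683 FPKM with si-RAB23-9, against 755 and 748 FPKM with si-RAB23-1, and was lower by 0.12 on the log2 scale (limma adjusted p = 0.0361), a value that turned to 0.0112 after quantile normalization. RPL7A and RPL4, both of the large subunit, differed by -0.12 each (limma adjusted p = 0.0405 and 0.0427). RPL14 differed by -0.16, RPL36AL by -0.17, RPL30 and RPS20 by -0.11 each, RPS28 by -0.14 (a call also lost with pseudogene reads added, limma adjusted p = 0.0745) and RPL10 by -0.10, with limma adjusted p between 0.0389 and 0.0453. The limit given above for reads of the opposite strand holds here too. Exons of other genes there cover 52.7% of the exonic bases of RPL10 and 21.6% of those of RPL30. Pseudogenes held 6.93% of the reads for RPL10.

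On the higher side RPS19BP1 was at 8.96 and 9.08 FPKM with si-RAB23-9, against 7.44 and 8.01 FPKM with si-RAB23-1 (0.20, limma adjusted p = 0.0459). On the same side, without passing the test, were RPL39L (0.13), RPS29 (0.10) and RPL28 (0.09), with limma adjusted p between 0.0892 and 0.330.

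Of these 17 calls, that of RPL15 held with each of the 6 libraries left out (limma adjusted p up to 0.0495) and under the 11 other settings. RPL5 lost its call only without si-RAB23-9 replicate 2 (limma adjusted p = 0.0506), and the other 15 lost theirs without at least 3 of the 6 libraries. Limma called 3 members (3.61%) when either si-NC library or si-RAB23-1 replicate 1 was left out, against 9.52% to 13.4% of all genes, and 21 (25.3%, against 18.8%) when si-RAB23-1 replicate 2 was. Leaving out replicate 1 or 2 of si-RAB23-9 gave 2 and 1 calls (2.41% and 1.2%, against 5.94% and 4.91% of all genes). The split of higher to lower was 2 to 6 with FPKM set to a common total (9.64% of the members, against 21% of all genes). It was 6 to 8 after quantile normalization (16.9%, against 20.5%) and 5 to 18 on voom with library totals (27.7%, against 31.3%). On voom with median-of-ratios sizes it was 1 to 26 (32.5%, against 30.7%). The members' median stayed below 0 under each of these scalings.

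**Figure D4:**
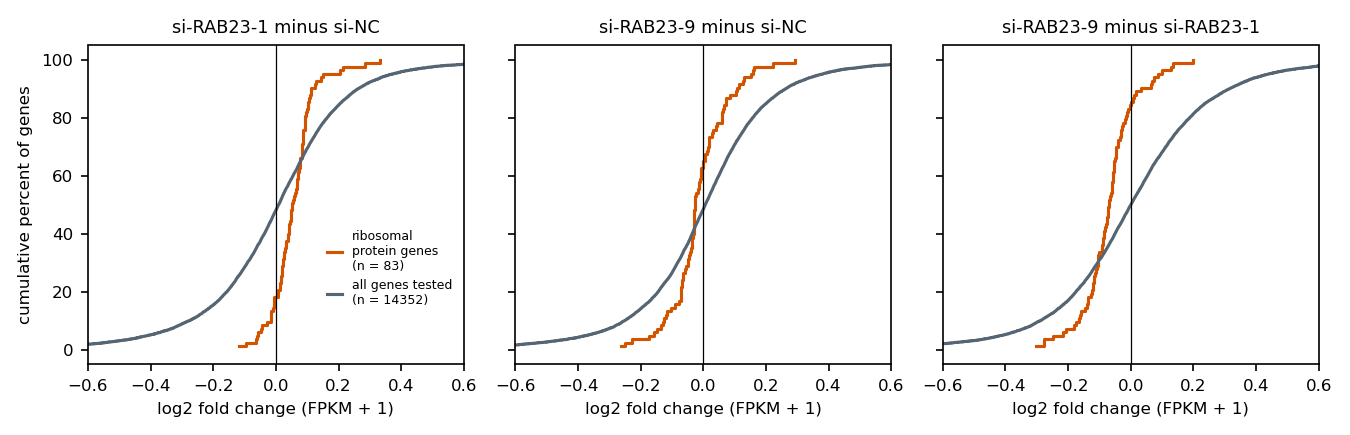
Cumulative percent of genes (vertical) by log2 fold change on the log2(FPKM + 1) scale (horizontal, shown from -0.6 to 0.6) for the 83 tested members and all 14352 genes tested, 1 panel per comparison. The members' curve is steeper than that of all genes in each panel, and its median lies at 0.053, -0.026 and -0.070 from left to right.

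The members were also set beside other genes of high level. Of the 268 other genes with a mean of at least 100 FPKM, limma called 28.4% for si-RAB23-1 minus si-NC, 28.4% for si-RAB23-9 minus si-NC and 39.6% between the RAB23 siRNAs. Their median fold changes were 0.058, 0.0053 and -0.047. The members' shares of 2.41%, 4.82% and 20.5% stood beside these, and their median of 0.053 in the first comparison beside 0.058. The members' values are over all 83 tested, without that cut, and 59 members were at 100 FPKM or more with si-NC. The sets are therefore not matched in level. The difference between both sets of genes was given no test.

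Members were also split by the 5′TOP run, as counted from the annotated start base, so the split depends on that annotation. The median was 0.050 with the run (42 tested) and 0.063 without it (24 tested) for si-RAB23-1 minus si-NC, -0.027 and -0.029 for si-RAB23-9 minus si-NC, and -0.063 and -0.089 for si-RAB23-9 minus si-RAB23-1. Between the RAB23 siRNAs limma called 6 of the 42 with the run (14.3%) and 7 of the 24 without it (29.2%), beside 21% of all genes, and the difference between both shares was given no test.

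Paralogs were set against their core partners as ratios of FPKM. RPL22L1 was at 0.172 and 0.162 times RPL22 with si-RAB23-1 and at 0.181 and 0.199 times with si-RAB23-9, against 0.141 and 0.143 times with si-NC, so the ratio was higher in all 4 libraries. RPL22 itself was at 50.9 and 45.6 FPKM with si-RAB23-1 and 41.7 and 39.2 FPKM with si-RAB23-9, against 44.6 and 45.7 FPKM with si-NC. RPL26L1, with 0% of its reads on pseudogenes of its name, was above RPL26 in each library, at 1.39 and 1.55 times its level with si-RAB23-1 and 1.27 and 1.55 times with si-RAB23-9, against 1.22 and 1.23 times with si-NC. This order depends on gene length. With reads scaled to the principal transcript, the si-NC means were 34.8 FPKM for RPL26L1 and 73.5 FPKM for RPL26, so RPL26 was then the higher. For RPL26 the pseudogenes held 14.5% of the reads. RPL26 also shares 14.3% of its exonic bases with another gene on the same strand. The ratio is therefore uncertain.

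RPL36AL was 44.2 and 40.2 times RPL36A with si-RAB23-1 and 45.0 and 46.2 times with si-RAB23-9, against 41.6 and 40.8 times with si-NC. RPL36A shares exons with its readthrough partner, and its joined exons have 3964 bases, against 746 for RPL36AL. Scaled to the principal transcript, the si-NC means were 122.7 FPKM for RPL36AL and 27.5 FPKM for RPL36A, a much smaller gap. RPL39L, a paralog best known from the testis, was at 0.177 and 0.171 times RPL39 with si-RAB23-1 and 0.204 and 0.188 times with si-RAB23-9, against 0.193 and 0.202 times with si-NC. RPL7L1 was at 0.0445 and 0.0447 times RPL7 with si-RAB23-1 and 0.0420 and 0.0419 times with si-RAB23-9, against 0.0406 and 0.0424 times with si-NC. RPS27L was at under 0.01 of RPS27 in every library, and its fold changes were -0.05 for si-RAB23-1 and -0.13 for si-RAB23-9 against si-NC (limma adjusted p = 0.764 and 0.371). The ratios were given no test.

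Of the members known to bind MDM2, only RPL5 passed the test against si-NC, with si-RAB23-9. Compared with its partner RPL11, RPL5 was at 2.17 and 2.27 times RPL11 with si-RAB23-1 and at 1.87 and 1.93 times with si-RAB23-9, against 2.61 and 2.46 times with si-NC. RPL11 was at 195 and 188 FPKM with si-RAB23-9, against 167 and 175 FPKM with si-NC, a fold change of 0.16 that stayed short of the threshold (limma adjusted p = 0.112). RPL23, RPS7 and RPS3 had fold changes between -0.07 and 0.08 against si-NC, and 0 of these 3 passed the test. MDM2 fell with both siRNAs, to 9.21 and 9.16 FPKM with si-RAB23-1 and 9.77 and 9.54 FPKM with si-RAB23-9, against 12.2 and 12.3 FPKM with si-NC (-0.38, limma adjusted p = 0.00511, and -0.32, 0.00845).

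The P stalk recruits the GTPases of translation to the large subunit. RPLP0, its base, had 625 and 609 FPKM with si-RAB23-1 and 588 and 584 FPKM with si-RAB23-9, against 586 and 571 FPKM with si-NC. RPLP1 had 460.1 and 467 FPKM with si-RAB23-1 and 462 and 467 FPKM with si-RAB23-9, against 437 and 425 FPKM with si-NC. RPLP2 had 302 and 301 FPKM with si-RAB23-1 and 286 and 295 FPKM with si-RAB23-9, against 293 and 294 FPKM with si-NC. None of these 3 passed the test in any comparison, and RPLP1, with both RAB23 siRNAs above si-NC, came nearest (limma adjusted p = 0.0556 and 0.0576).

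RPS27A encodes a ribosomal protein fused to ubiquitin. It was at 229 and 223 FPKM with si-RAB23-1 and 206 and 198 FPKM with si-RAB23-9, against 224 and 217 FPKM with si-NC. It was lower with si-RAB23-9 than with si-RAB23-1 (-0.16, limma adjusted p = 0.0252), a call lost without si-RAB23-1 replicate 1 or either si-RAB23-9 library (up to 0.150), and did not pass against si-NC (-0.12, limma adjusted p = 0.0674). The subunit genes FAU and RACK1 lie outside the name rule, and neither passed in any comparison. RPSA, added after its values were seen, also did not (adjusted p = 0.348 and 0.866 against si-NC).

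Genes of related functions were counted in the same fit, beside 15.4% of all genes called for si-RAB23-1, 13.3% for si-RAB23-9 and 21% between the RAB23 siRNAs. Of 17 tested elongation factors and other mRNAs with a 5′TOP motif, 3 rose with si-RAB23-1 (EIF3F by 0.21, PABPC1 by 0.20 and EEF2 by 0.19; 17.6%) and none fell, with a median of 0.086. With si-RAB23-9, EIF3H (-0.36) and EEF1A1 (-0.23) fell (11.8%) and none rose, with a median of -0.052. Between the RAB23 siRNAs 5 were lower with si-RAB23-9 (29.4%) and none was higher, led by EIF3H (-0.43), EEF1A1 (-0.32) and NAP1L1 (-0.29). EEF1A1, the main elongation factor, had 1783 and 1692 FPKM with si-RAB23-1 and 1407 and 1379 FPKM with si-RAB23-9, against 1636 and 1633 FPKM with si-NC. EEF1G was listed at 0 in every library.

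Of 12 regulators of 5′TOP mRNAs and the mTORC1 axis, LARP1 rose with both siRNAs (0.20 and 0.18), and LARP4 (-0.34) and EIF4EBP2 (-0.17) fell with si-RAB23-9 (8.33% called with si-RAB23-1 and 25% with si-RAB23-9). Of 11 genes of RNA polymerase I and its factors, POLR1B (0.33) and TAF1D (0.25) rose with si-RAB23-1 (18.2%) and none passed with si-RAB23-9. Of 13 genes for the folding, import or export of ribosomal proteins and subunits, NMD3 (0.36) and TSR1 (0.20) rose with si-RAB23-1, while with si-RAB23-9 TSR2 (0.18) rose and AAMP (-0.18) fell, 15.4% of the list in each comparison. NMD3, the export adaptor of the large subunit, was lower with si-RAB23-9 than with si-RAB23-1 (-0.46, limma adjusted p = 0.0107). Of 77 tested mitochondrial ribosomal protein genes, 6 rose and 2 fell with each siRNA (10.4%), with medians of 0.048 and -0.0055. The largest was that of MRPS7, which fell by 0.60 with si-RAB23-1 (limma adjusted p = 0.00224). Of 11 host genes of small nucleolar RNAs, SNHG16 (0.28) and SNHG15 (0.27) rose with si-RAB23-1 (18.2%), and 0 passed with si-RAB23-9.

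The members were last scanned for AAGTTAA, a 7-mer of 3′ UTRs that was picked from earlier results of these data on genes lower with si-RAB23-9. It was searched on the mRNA strand in the annotated 3′ UTRs of all protein-coding transcripts of a gene. In at least 1 transcript 8 of the 88 members (9.09%) held it, against 18.6% of 10830 other tested genes. The lengths of the 3′ UTRs were not matched between both sets, and a longer one has more places for a 7-mer. Nothing is therefore read from the lower share. Of the 3 members called lower with si-RAB23-9, RPL15 and RPS28 held it and RPL5 did not. The 7-mer was picked on this contrast, so nothing is read from which of the called members hold it. These 2 sites are shown with 11 bases on each side (GENCODE 29 transcripts, GRCh38), the 7-mer in capitals.
RPL15 (chr3:23919627-23919633, plus strand): tcaaattaagaAAGTTAAagtgcaataat
RPS28 (chr19:8322390-8322396, plus strand): gtttgtgtttcAAGTTAActcaggttctt

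The 8 members that held the 7-mer had a median fold change of -0.013 for si-RAB23-9 minus si-NC, against -0.026 over the 83 tested members. The other 6 were RPL37, RPL13, RPS29, RPL23, RPS3 and RPS15A, and none of them was called in any comparison.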

How the data were processed

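The table the authors deposited holds FPKM per gene and library, with gene lengths. Per the submitters' processing notes, the tools included RSEM 1.2.29, STAR 2.5.1b, edgeR 3.8.5, Trimmomatic 0.36 and FastQC, and a build given is hg19; start and end of all 58735 genes equal those of GENCODE 29 on GRCh38. FPKM times gene length gave whole reads for every value (tolerance 0.01), in contrast to the fractional estimates that RSEM gives. The 14352 genes that reached an FPKM of 1 in 2 or more libraries entered a limma fit (version 3.58.1, R 4.3.3) of log2(FPKM + 1), with a mean-variance trend, 1 mean per group over the 6 libraries and 3 residual degrees of freedom. Tests were two-sided. The scale understates changes of low genes. Voom on the recovered reads, other scalings, pseudocounts and filters, a replicate block and leaving out each library were alternatives. The sources used here do not give strandedness.

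The members and lists were chosen with earlier results of these data known. Genes named were all called members, the 5 highest and 5 lowest fold changes per comparison, the 5 highest and lowest levels, paralog pairs, the P stalk, MDM2-binding members, RPS27A, untested members, and up to 4 called genes per related list. The si-RAB23-9 minus si-NC value of RPL28 and the members that hold the 7-mer are named beyond this rule, after their values were seen. Some genes that this rule would name are not reported here.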

Additional observations from a re-analysis of the deposited data

How the results depend on the processing

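Limits are 2 libraries per group, 3 residual degrees of freedom, and reads shared with pseudogenes and readthrough genes. The medians of the members kept their sign in the 3 comparisons under every alternative run. For si-RAB23-1 minus si-NC, limma called 0 members with no filter, 8 at a mean FPKM of at least 5, 1 with only the 4 libraries compared, 0 at a common FPKM total, 5 after quantile normalization, 9 on voom with library totals, 13 on voom with median-of-ratios sizes, and 0 to 9 with 1 library left out, against 2. For si-RAB23-9 minus si-NC it called 1 with no filter, 9 at a mean FPKM of at least 5, 7 with only 4 libraries, 11 after quantile normalization, 14 and 15 on voom, and 0 to 7 with 1 library left out, against 4. For si-RAB23-9 minus si-RAB23-1 it called 2 with no filter, 3 with only 4 libraries, 8 at a common total, 27 on voom with median-of-ratios sizes, and 1 to 21 with 1 library left out, against 17. Over all genes the counts were 1049, 983 and 1458 with no filter, 1234 (first) and 1919 (last comparison) with only 4 libraries, 3800 and 3794 (first) and 3408 and 3407 (second) on voom, and 338 to 1820, 258 to 2075 and 705 to 2691 with 1 library left out. At a mean FPKM of at least 5 the calls were 10% and 11.2% of the members (first and second comparison), against 29.8% and 27.4% of all genes. With only 4 libraries they were 1.2%, 8.43% and 3.61% of the members, against 8.6%, 14.6% and 13.4% of all genes. The members' median for si-RAB23-1 minus si-NC was 0.0237 at a common total, 0.0088 after quantile normalization, 0.0246 on voom with library totals, and 0.0303 to 0.0795 with 1 library left out. For si-RAB23-9 minus si-RAB23-1 it was -0.0396, -0.0211 and -0.0444 under the same 3, and -0.0998 to -0.0537 with 1 library left out; for si-RAB23-9 minus si-NC the range was -0.0286 to -0.0128. The summed share differed by 0.0811 to 0.1617, -0.0569 to -0.0492 and -0.2147 to -0.1342 percentage points with 1 library left out, and by -0.1807 and -0.2852 (second and last comparison) as a share of protein-coding FPKM without mitochondrial genes. RPL35 was at 0 for si-RAB23-1 minus si-NC after quantile normalization. Values that turned sign included those of RPL12, at 0.0112 for si-RAB23-9 minus si-RAB23-1 after quantile normalization, and RPL39L, at 0.0177 for si-RAB23-1 minus si-NC without si-RAB23-1 replicate 2 (down to -0.1316 without replicate 1). Some of these fits held fewer libraries, and the fit with no filter held more genes. The cause of these shifts was not tested.

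Libraries of the same number share only a number: the correlations of their deviations were -0.0562, -0.0158 and 0.0610. With the replicate number as a block limma called 1, 3 and 6 members, and 1655, 1437 and 2423 genes in all.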
